A study of Mus musculus with 12 samples.

Results

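The members are the variable (Trav) and joining (Traj) segments of the T cell receptor alpha chain that held at least 10 counts summed over 12 RNA sequencing libraries of sorted mouse CD4 T cells. Of 54532 rows in the count table, 130 met this: 71 of the 128 Trav rows and 59 of the 60 Traj rows. They were chosen by the summed count alone, with no regard to subset, and 8 of the 71 Trav and 3 of the 59 Traj members would fall under 10 counts without the libraries of some single subset. The measure followed is usage, the share of a segment in all Trav, or in all Traj, counts of a library. Just inside the threshold were Trav14d-2 with 10 counts and Trav3n-3, Trav13-3, Trav23 and Trav6d-3 with 11 each, and just outside were Trav13n-1 with 9, Trav4d-2 with 8 and Trav18, Trav4n-4 and Traj60 with 7 each. The 71 Trav members held 98.9% of the 9177 Trav counts, and 30 Trav rows had 0 counts. All 128 Trav and 60 Traj rows matched a GENCODE M21 gene on the plus strand of chromosome 14 of GRCm38.

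All libraries share a wild-type C57BL/6 background with a Foxp3-GFP reporter, a polyclonal repertoire, no treatment, and spleen combined with lymph node as the tissue. Anergic cells, antigen-experienced cells held unresponsive, were sorted as CD44high, FOXP3-, CD73high, FR4high and NRP1+. Treg cells were sorted as FOXP3+ CD25+, effector cells (Teff) as CD44high, FOXP3-, CD73low and FR4low, and Naive cells as CD44low, and each subset has 3 libraries. Whether the replicates are separate mice is not stated, so a p-value here speaks of the spread among 3 samples that may be technical repeats. Foxp3 stood at 18.2 ± 2.84 CPM, read counts scaled to library size, in Anergic, 542 ± 15.8 in Treg, 0.733 ± 0.330 in Teff and 1.35 ± 0.224 in Naive libraries (SD, n = 3 each), and Cd4 averaged 1222, 466, 652 and 673 CPM in the same order.

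T cells join a Trav to a Traj segment in the thymus, and the joined exon is spliced to the constant exon Trac. The sum over many cells therefore draws on a repertoire of joins. First joins tend to use a Trav near the Traj array and a Traj far from Trac, and a later join can replace them with a more distant Trav and a Traj nearer Trac. Some combinations mark whole lineages: invariant NKT (iNKT) cells carry Trav11 joined to Traj18, and mucosal-associated invariant T (MAIT) cells carry Trav1 joined to Traj33. Segments with dv in their names can also be joined to delta segments, and the C57BL/6 locus holds several near-identical copies of a Trav cluster, of which those with d or n in the name are the added ones. In these short-read counts a V and a J are counted apart, so the data give the counts of each segment and not the pairing. The libraries were made from total RNA, and reads of unspliced RNA were not separated from reads of joined exons. A Traj share is therefore a share of counts and need not equal the share of joins. Traj rows are 29 to 72 bases long and Trav rows 155 to 595, yet libraries held 1.32 to 3.59 Traj counts per Trav count.

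The Traj segments that carry the J results are shown first, from the GENCODE M21 transcripts, because their sequence holds the motif of the joined exon. Capitals mark codons that read Phe-Gly-X-Gly or, failing that, Trp-Gly-X-Gly, in any frame of the coding strand only, where X is any amino acid. The first was found in 43 of 60 Traj (71.7%), the second alone in 2 (3.33%) and neither in 15 (25%), and 1 of the 43 held both. Among the 9 Traj annotated as pseudogenes, 1 held the first motif and 8 held neither. Traj6, Traj22 and Traj12 were the most counted, Traj18 and Traj33 are the iNKT and MAIT segments, and Traj2, Traj3 and Traj26 differed between subsets. Traj3 shows no capitals, since neither motif is in it.
Traj6: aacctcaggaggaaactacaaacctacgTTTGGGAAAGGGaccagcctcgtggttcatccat
Traj22: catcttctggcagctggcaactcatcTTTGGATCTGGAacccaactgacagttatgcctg
Traj12: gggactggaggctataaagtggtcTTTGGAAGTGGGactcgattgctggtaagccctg
Traj18: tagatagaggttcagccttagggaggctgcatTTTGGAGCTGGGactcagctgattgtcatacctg
Traj33: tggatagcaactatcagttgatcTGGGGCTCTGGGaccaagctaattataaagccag
Traj2: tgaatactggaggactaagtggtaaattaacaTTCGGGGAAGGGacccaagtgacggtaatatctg
Traj3: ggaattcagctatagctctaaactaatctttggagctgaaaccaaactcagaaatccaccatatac
Traj26: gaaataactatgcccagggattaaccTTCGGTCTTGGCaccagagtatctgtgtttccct
They span chr14:54212688-54212749 (Traj6), chr14:54197248-54197307 (Traj22), chr14:54206553-54206610 (Traj12), chr14:54200777-54200842 (Traj18), chr14:54185358-54185414 (Traj33), chr14:54217836-54217901 (Traj2), chr14:54217292-54217357 (Traj3) and chr14:54194490-54194549 (Traj26), each annotated as a joining segment gene with a single exon.

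Among variable segments, Trav15-1-dv6-1 and Trav6-2 were called in every comparison of Anergic cells, and Trav14n-3 was the most counted and the most uneven between replicates. Trav15-1-dv6-1 (chr14:53559632-53560247) is set beside Trav15n-1 (chr14:53174325-53174896), a copy that had 0 counts, to show what tells a read of the pair apart. Trav15n-1 is in turn identical over 352 bases to another copy, Trav15d-1-dv6d-1, so its 0 counts cannot be read as no use. Bases 4 to 303 of their 352-base coding parts are given, with the 16 bases that differ in capitals.
Trav15-1-dv6-1: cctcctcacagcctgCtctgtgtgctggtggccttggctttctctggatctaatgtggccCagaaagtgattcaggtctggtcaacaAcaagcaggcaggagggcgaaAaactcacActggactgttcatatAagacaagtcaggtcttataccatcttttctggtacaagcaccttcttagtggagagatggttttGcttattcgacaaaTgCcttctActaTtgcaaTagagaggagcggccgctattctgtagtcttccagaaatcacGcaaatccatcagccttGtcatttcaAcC
Trav15n-1: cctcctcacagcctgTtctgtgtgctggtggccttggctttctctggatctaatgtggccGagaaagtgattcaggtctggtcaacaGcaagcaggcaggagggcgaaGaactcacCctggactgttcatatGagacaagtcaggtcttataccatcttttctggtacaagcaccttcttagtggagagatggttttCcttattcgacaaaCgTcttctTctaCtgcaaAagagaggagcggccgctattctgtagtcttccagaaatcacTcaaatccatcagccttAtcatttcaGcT
In Trav6-2 (chr14:52667411-52667864) and Trav14n-3 (chr14:53370077-53370575), capitals mark bases inside a 50-base window found in no other annotated transcript, 322 of 341 bases and 266 of 361 bases in all. Bases 1 to 300 are given.
Trav6-2: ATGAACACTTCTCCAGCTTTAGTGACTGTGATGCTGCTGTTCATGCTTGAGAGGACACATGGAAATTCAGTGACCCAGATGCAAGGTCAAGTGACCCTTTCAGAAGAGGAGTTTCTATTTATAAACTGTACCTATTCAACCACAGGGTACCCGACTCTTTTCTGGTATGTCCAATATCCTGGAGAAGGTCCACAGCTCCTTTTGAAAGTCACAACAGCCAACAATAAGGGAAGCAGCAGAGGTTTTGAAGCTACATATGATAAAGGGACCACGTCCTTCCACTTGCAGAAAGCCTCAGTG
Trav14n-3: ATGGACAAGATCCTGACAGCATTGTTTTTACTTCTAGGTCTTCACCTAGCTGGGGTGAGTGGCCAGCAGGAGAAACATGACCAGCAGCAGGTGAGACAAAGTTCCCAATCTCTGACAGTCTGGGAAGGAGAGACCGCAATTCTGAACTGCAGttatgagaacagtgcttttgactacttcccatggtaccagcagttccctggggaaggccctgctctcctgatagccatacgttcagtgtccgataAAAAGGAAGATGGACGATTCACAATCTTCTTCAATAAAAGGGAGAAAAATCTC
Trav11 (chr14:53519303-53519859), the variable segment of the iNKT receptor, is set beside Trav11n (chr14:53135122-53135678), annotated as a pseudogene, as bases 1 to 300 of 343 with their 8 differing bases in capitals, because counts fell on the pseudogene and hardly on Trav11.
Trav11: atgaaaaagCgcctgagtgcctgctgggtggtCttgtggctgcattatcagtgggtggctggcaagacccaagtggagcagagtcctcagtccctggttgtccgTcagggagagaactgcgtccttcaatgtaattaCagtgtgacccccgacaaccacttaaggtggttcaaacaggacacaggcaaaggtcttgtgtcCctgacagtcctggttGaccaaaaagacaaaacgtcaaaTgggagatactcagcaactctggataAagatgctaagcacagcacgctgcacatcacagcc
Trav11n: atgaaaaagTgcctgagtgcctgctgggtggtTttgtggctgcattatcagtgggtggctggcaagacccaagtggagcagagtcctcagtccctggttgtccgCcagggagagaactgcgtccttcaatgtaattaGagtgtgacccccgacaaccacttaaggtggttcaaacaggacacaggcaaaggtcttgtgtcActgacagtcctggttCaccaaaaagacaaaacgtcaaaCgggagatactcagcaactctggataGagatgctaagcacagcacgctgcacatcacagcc
Counted from 1 at the 5′ end of Trav11, the differences to Trav11n include C138G, C201A and G217C.

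Copies this alike limit what the counts can say. A 50-base window is the length of a single read, and 42 of the 128 Trav rows had no window of their own. Those 42 rows held 0.948% of Trav counts, 24 of them had 0 counts, and 4 were members. In the 43 rows with over 25 and up to 75% of windows unique, 38 were members, and they held 64.2% of Trav counts. Across the 128 Trav rows, counts per base rose with the unique share (Spearman's rho 0.647 over genes, a description, since genes share libraries and copies). Usage within Trav is therefore given for rows as the authors counted them, and how multi-mapped reads were counted is not given in the sources used here.

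**Figure D1:**
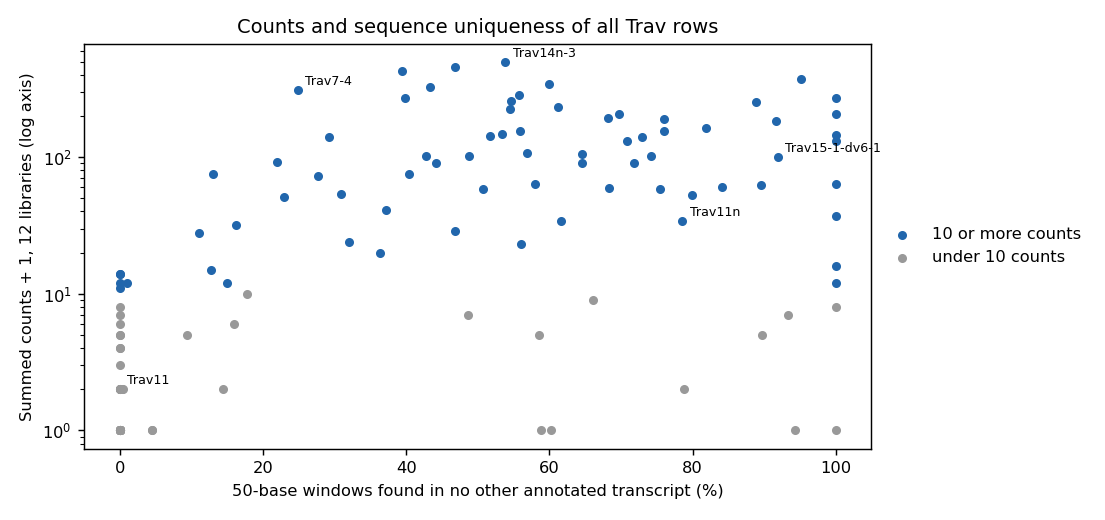
Each point is a Trav row, with the percent of its 50-base windows found in no other annotated transcript on the x axis and its counts summed over 12 libraries plus 1 on a log y axis. Rows at 0% unique windows hold at most 13 counts, and Trav11 is among them.

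Libraries held 6909035 to 9527897 counts in all, 581 to 988 on Trav rows and 1166 to 2088 on Traj rows, so shares are coarse. In the smallest libraries the 95% Wilson interval of a 6.54% share, 38 of 581 Trav counts for Trav4-4-dv10, ran from 4.80 to 8.85%, and that of an 11.4% share, 133 of 1166 Traj counts for Traj6, from 9.71 to 13.4%. Intervals and floors cover counting error only. Of the members, 50 of 71 Trav and 51 of 59 Traj had a count in every library, and 67 and 58 in every subset.

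As a class, Trav RNA was lower in Treg and Teff cells than in Anergic and Naive cells. Summed Trav counts gave 114 ± 3.85 CPM in Anergic, 73.9 ± 6.89 in Treg, 74.7 ± 6.88 in Teff and 119 ± 7.04 in Naive libraries (SD, n = 3), after scaling by edgeR's trimmed mean of M values (TMM). No Treg or Teff library, at most 81.9 CPM, reached the lowest Anergic or Naive library at 110 CPM. Traj sums were 190 ± 30.4, 144 ± 11.6, 206 ± 29.1 and 233 ± 22.4 CPM in the same order, where the Anergic range of 155 to 209 CPM and the Teff range of 189 to 240 CPM overlapped with the Naive range of 208 to 251 CPM and the Treg range of 136 to 157 CPM did not. Trac, the constant exon, was at 500 ± 42.5 CPM in Anergic, 285 ± 9.25 in Treg, 348 ± 22.3 in Teff and 367 ± 15.7 in Naive libraries (SD, n = 3). In bulk samples, fewer cells of a type and less RNA per cell cannot be told apart.

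The ratio of Traj to Trav counts was 1.32 to 1.88 in Anergic, 1.92 to 1.97 in Treg, 2.41 to 3.59 in Teff and 1.67 to 2.25 in Naive libraries. Teff libraries were all above the other subsets' libraries, with Teff replicate 1 the highest at 3.59, and Anergic replicate 3 was the lowest at 1.32. Per 100 Trac counts, Trav rows had 21.6 to 24.6 counts in Anergic, 23.8 to 29.5 in Treg, 20.7 to 21.8 in Teff and 31.9 to 32.9 in Naive libraries, where Naive stood above all others. Usage removes these class differences by dividing within each class.

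Usage of most segments did not pass the test between subsets. Of the 130 members, Anergic against Teff called 2, 1 higher and 1 lower, beside 19.2% of all 19020 tested rows called in that comparison (10.2% higher and 8.96% lower). Anergic against Treg called 4, 3 higher and 1 lower (22.5% of all rows, 11.4% higher and 11.1% lower). Anergic against Naive called 7, 3 higher and 4 lower (34.6% of all rows, 19.8% higher and 14.8% lower). Teff against Naive called 3, 1 higher and 2 lower (25.2% of all rows, 14.6% higher and 10.6% lower). Treg against Naive called 3, all higher (23.6% of all rows, 14.4% higher and 9.21% lower), and Treg against Teff called 1, higher (21% of all rows, 10.8% higher and 10.2% lower). Each share was far under that of all rows, and also under the 13.9% (Anergic against Teff), 15.3% (Anergic against Treg), 26.5% (Anergic against Naive), 18.4% (Teff against Naive), 17% (Treg against Naive) and 14.9% (Treg against Teff) called among rows with no more counts than Traj6. A call is an adjusted p under 0.05 by the quasi-likelihood test of edgeR, adjusted over the whole table by Benjamini-Hochberg, with each Trav or Traj row scaled to its class total. Median absolute log2 fold changes of the members, 0.30 to 0.44, lay beside 0.32 to 0.47 over all rows. All comparisons with the same subset share its 3 libraries.

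**Figure D2:**
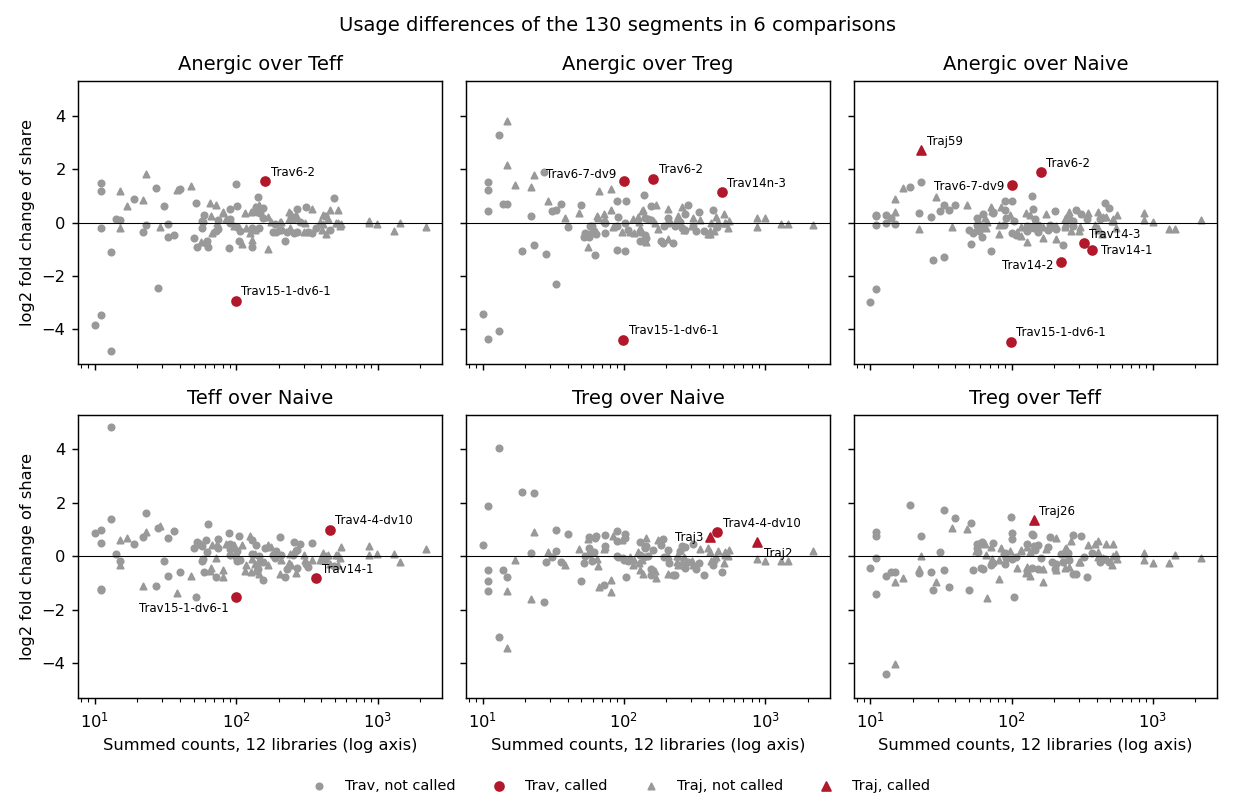
Each point is 1 of the 130 members, with its counts summed over 12 libraries on a log x axis and its log2 fold change of usage on the y axis, in 6 comparisons. Red points passed at an adjusted p under 0.05, from 1 in Treg over Teff to 7 in Anergic over Naive.

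Trav15-1-dv6-1, a variable segment of the dv class that can also serve delta chains, was nearly missing from Anergic cells. Its counts in replicates 1, 2 and 3 were 0, 2 and 0 in Anergic, 6, 13 and 16 in Treg, 3, 7 and 2 in Teff, and 20, 14 and 16 in Naive libraries. The Anergic libraries were below every Treg and Naive library, and Anergic replicate 2 equalled the lowest Teff library in counts. As a share of Trav counts it averaged 0.0708 ± 0.123% in Anergic, 1.85 ± 0.904% in Treg, 0.65 ± 0.408% in Teff and 1.94 ± 0.522% in Naive libraries (SD, n = 3), and a count of 0 allows up to 0.312 and 0.339% in Anergic replicates 1 and 3. Over pooled libraries the Anergic share was 25.2-fold lower than in Treg (exact 95% interval 6.47 to 216, 2 of 2786 against 35 of 1936 counts), 9.14-fold lower than in Teff (2.04 to 84.1, against 12 of 1828) and 26.5-fold lower than in Naive cells (6.97 to 225, against 50 of 2627).

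The adjusted p was 4.85e-05 against Treg, 0.0264 against Teff and 1.37e-05 against Naive cells, in edgeR's quasi-likelihood test. Against Treg and Naive cells the call held under all 20 alternatives (adjusted p at most 0.000788 and 0.000230). Against Teff it was lost in 6, among them without Anergic replicate 1, Anergic replicate 3 or Teff replicate 2 (log2 fold change -2.46 to -2.31, adjusted p 0.0934 to 0.187, and 0.00806 to 0.187 over the 20). Teff cells used Trav15-1-dv6-1 less than Naive cells (log2 fold change -1.53 ± 0.576 SE, adjusted p = 0.0481), but 6 single libraries of Teff, Treg and Naive each ended that call when left out (-1.53 to -1.21, adjusted p 0.0515 to 0.187, and 0.00345 to 0.187 over the 20 alternatives). Those were Naive replicates 1 and 3, Teff replicates 1 and 3 and Treg replicates 2 and 3. That call was also lost in the DESeq2 test and with TMM among segments. Between Treg and Naive cells the log2 fold change was -0.07 ± 0.484 SE (adjusted p = 0.948), and between Treg and Teff it was 1.46 ± 0.598 SE (adjusted p = 0.0834).

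The neighbouring copies of the family were little counted: Trav15-2-dv6-2 had 33 counts in all, and the other 7 Trav15 rows had 12 together. Little counted need not mean little used, since Trav15d-1-dv6d-1 is identical to Trav15n-1 over their shared bases, and Trav15d-2-dv6d-2 to Trav15n-2. Summed over the family, Trav15 took 0.217 ± 0.213% in Anergic, 2.66 ± 0.798% in Treg, 0.972 ± 0.673% in Teff and 2.67 ± 0.718% in Naive libraries (SD, n = 3). Since dv segments can join to delta segments, gamma delta markers stand beside these values. The 7 listed genes summed to 15.1 to 23.5 CPM in Anergic, 4.86 to 8.20 in Treg, 45.6 to 46.0 in Teff and 2.72 to 5.20 in Naive libraries, and none was at 0 throughout. Trdc, the delta constant gene, was at 5.12 ± 3.12, 3.97 ± 0.804, 2.34 ± 0.828 and 3.36 ± 1.12 CPM in the same order (SD, n = 3). The part of such cells in the Trav15 result was not tested.

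Trav6-2 was used more in Anergic cells than in any other subset. Its counts were 47, 10 and 38 in Anergic, 7, 8 and 6 in Treg, 3, 7 and 11 in Teff, and 8, 10 and 6 in Naive libraries, replicates 1 to 3. Anergic replicates 1 and 3 were far above every other library, while Anergic replicate 2, at 1.06% of its Trav counts, lay among the Treg, Teff and Naive libraries, which reached 1.79%. The share averaged 3.42 ± 2.06% in Anergic, 1.08 ± 0.129% in Treg, 1.14 ± 0.637% in Teff and 0.908 ± 0.157% in Naive libraries (SD, n = 3). The log2 fold change was 1.64 ± 0.472 SE against Treg (adjusted p = 0.00897), 1.56 ± 0.473 SE against Teff (adjusted p = 0.0155) and 1.89 ± 0.457 SE against Naive cells (adjusted p = 0.00118). Against Naive cells the call held under all 20 alternatives. Without Anergic replicate 1 it was lost against Treg (1.28, adjusted p = 0.0848, and 0.000317 to 0.0848 over the 20), and against Teff it was lost without Anergic replicate 1, Anergic replicate 3 or Teff replicate 1 (1.20 to 1.37, adjusted p 0.0747 to 0.124, and 0.000626 to 0.124 over the 20).

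Trav6-7-dv9, another segment of the Trav6 family, was higher in Anergic cells than in Treg and Naive cells. Its counts were 23, 10 and 22 in Anergic, 6, 6 and 1 in Treg, 5, 4 and 4 in Teff, and 9, 5 and 5 in Naive libraries, and again Anergic replicate 2 was the low one and overlapped with Naive in share. The share averaged 1.98 ± 0.797% in Anergic, 0.655 ± 0.424% in Treg, 0.715 ± 0.127% in Teff and 0.739 ± 0.322% in Naive libraries (SD, n = 3). It was higher in Anergic cells than in Treg cells, with a log2 fold change of 1.54 ± 0.539 SE (adjusted p = 0.0347), and than in Naive cells, with 1.42 ± 0.501 SE (adjusted p = 0.0256). It did not pass against Teff (1.45 ± 0.540 SE, adjusted p = 0.0558). With all libraries, the calls against Treg and Naive cells were both lost in the DESeq2 test. Each call was lost when some single libraries were left out: against Treg without Anergic replicate 1 or 3 or Treg replicate 3 (1.12 to 1.38, adjusted p 0.114 to 0.184, and 0.00216 to 0.184 over the 20 alternatives), against Naive without Anergic replicate 1 or 3 or Naive replicate 2 or 3 (1.19 to 1.31, adjusted p 0.0798 to 0.115, and 0.00952 to 0.115 over the 20). As a family of 15 rows, Trav6 took 9.73 ± 2.22% in Anergic, 7.96 ± 0.218% in Treg, 7.18 ± 0.959% in Teff and 6.86 ± 1.41% in Naive libraries (SD, n = 3).

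Trav14, the most counted variable family, was used most in Naive cells. Its 9 rows took 16.6 ± 5.29% of Trav counts in Anergic, 15 ± 1.30% in Treg, 15.8 ± 2.95% in Teff and 23.1 ± 0.632% in Naive libraries (SD, n = 3). The Naive libraries, at 22.4 to 23.6%, were above all others but Anergic replicate 1 at 22.7%. Trav14-1 had 24, 35 and 22 counts in Anergic, 17, 20 and 33 in Treg, 14, 19 and 28 in Teff, and 43, 72 and 42 in Naive libraries. Its share averaged 2.90 ± 0.708% in Anergic, 3.68 ± 1.59% in Treg, 3.32 ± 1.11% in Teff and 5.89 ± 1.22% in Naive libraries (SD, n = 3). No Anergic or Teff library overlapped with the Naive ones in share. It was lower in Anergic (log2 fold change -1.02 ± 0.286 SE, adjusted p = 0.00468) and Teff (-0.83 ± 0.300 SE, adjusted p = 0.0397) than in Naive cells. Without Naive replicate 2 the Anergic call was lost (-0.83, adjusted p = 0.0541, and 0.00102 to 0.0541 over 20 alternatives). The Teff call was lost without Naive replicate 2 or Teff replicate 1 or 2 (-0.76 to -0.64, adjusted p 0.109 to 0.209, and 0.000205 to 0.209 over the 20). The Teff call was also lost in the DESeq2 test.

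Trav14-2 was also lower in Anergic than in Naive cells, with 20, 14 and 4 counts in Anergic, 21, 13 and 11 in Treg, 15, 10 and 15 in Teff, and 41, 33 and 25 in Naive libraries. The Anergic shares, 1.34 ± 0.824%, did not overlap with the Naive shares, 3.80 ± 1.09% (SD, n = 3), and the log2 fold change of -1.47 ± 0.374 SE (adjusted p = 0.00193) held under all 20 alternatives. Trav14-3 took 2.69 ± 0.155% in Anergic and 4.62 ± 0.249% in Naive libraries (SD, n = 3), a log2 fold change of -0.77 ± 0.272 SE (adjusted p = 0.0249). Its 25, 27 and 23 counts in Anergic libraries stood below 38, 43 and 40 in Naive libraries. The Trav14-3 call was lost without Anergic replicate 1 or 3 or Naive replicate 1 or 3 (-0.77 to -0.74, adjusted p 0.0554 to 0.0664, and 0.0158 to 0.0664 over the 20). The DESeq2 test did not call it either. Of the 6 Trav14 members, these 3 were called lower in Anergic than in Naive cells and none higher. In that comparison 14.8% of all rows were called lower and 19.8% higher.

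Trav14n-3, the most counted Trav per base as well as in all, went the other way against Treg. Its counts were 131, 28 and 55 in Anergic, 29, 10 and 28 in Treg, 28, 23 and 23 in Teff, and 32, 49 and 56 in Naive libraries. Anergic replicate 1 alone, at 13.6% of its Trav counts, stood above all other libraries, and Anergic replicate 2, at 2.98%, lay below all but Treg replicate 2. The share averaged 7.61 ± 5.46% in Anergic and 3.48 ± 1.69% in Treg cells (SD, n = 3), a log2 fold change of 1.14 ± 0.366 SE (adjusted p = 0.0209). The call rested on single libraries: it was lost without Anergic replicate 1 (0.40, adjusted p = 0.497) and without Treg replicate 2 (0.78, adjusted p = 0.166). It was also lost in the DESeq2 test, and the adjusted p ran from 0.000118 to 0.497 over 20 alternatives.

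Trav4-4-dv10, another dv segment, was used more in Teff and Treg than in Naive cells. Its counts were 33, 81 and 33 in Anergic, 28, 40 and 45 in Treg, 38, 35 and 42 in Teff, and 23, 39 and 21 in Naive libraries. All 3 Treg and all 3 Teff shares were above the highest Naive share of 3.95%, with Treg replicate 1 just above at 4.08%. The share averaged 5.26 ± 2.90% in Anergic, 5.91 ± 1.72% in Treg, 6.30 ± 0.678% in Teff and 3.11 ± 0.742% in Naive libraries (SD, n = 3). The log2 fold change against Naive was 1.0 ± 0.309 SE in Teff (adjusted p = 0.0140) and 0.90 ± 0.309 SE in Treg (adjusted p = 0.0305), and 0.74 ± 0.299 SE in Anergic cells, which did not pass (adjusted p = 0.0521). The Teff call was lost without Naive replicate 3 or Teff replicate 3 (0.88 to 0.94, adjusted p 0.0526 to 0.0664, and 0.00144 to 0.521 over 20 alternatives), and the Treg call without Naive replicate 1 or 3 or Treg replicate 2 or 3 (0.70 to 0.86, adjusted p 0.0827 to 0.174, and 0.00556 to 0.730 over the 20). As a level scaled to the whole library rather than to Trav, neither Teff nor Treg passed, with log2 fold changes of 0.32 in Teff (adjusted p = 0.517) and 0.21 in Treg (adjusted p = 0.707).

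Of the other leading Trav segments, Trav8-1 took 5.25 ± 1.59% in Anergic, 3.77 ± 0.873% in Treg, 4.39 ± 1.59% in Teff and 4.81 ± 1.61% in Naive libraries (SD, n = 3). Trav3-3 took 3.78 ± 0.284, 2.87 ± 1.04, 4.88 ± 2.69 and 3.50 ± 1.13% in the same order. Neither was called in any comparison.

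**Figure D3:**
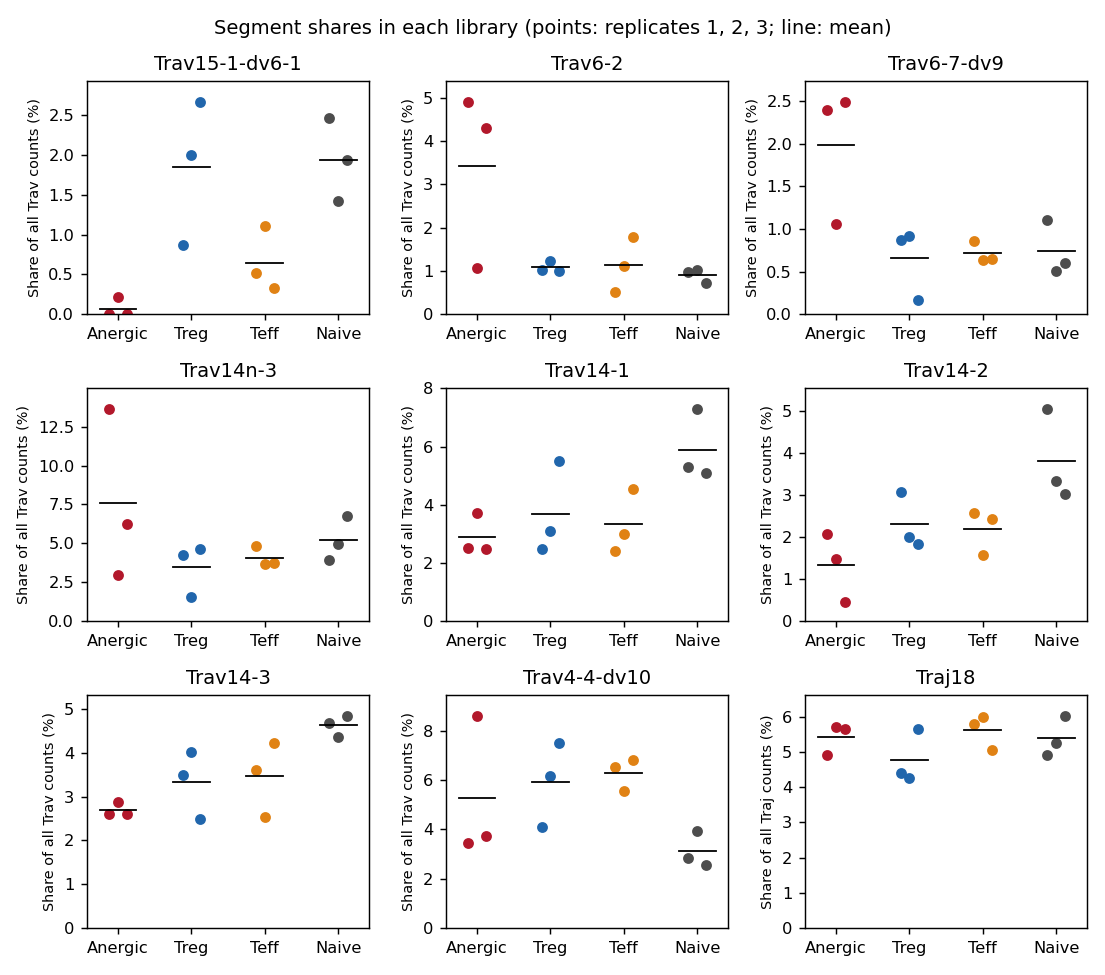
Each panel gives the share of a segment in its class (percent, y axis) in the 3 libraries of each subset, with points for replicates 1, 2 and 3 from left to right and a line at the mean. Trav15-1-dv6-1 is at or under 0.213% in the Anergic libraries, Anergic replicate 2 is the lowest Anergic library for Trav6-2, Trav6-7-dv9 and Trav14n-3, and Traj18 lies between 4.26 and 6.03% throughout.

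Summing rows by family gathers counts split over copies. If reads shared by identical copies were left uncounted, the family sums lack them too. Of 23 families, 21 had enough counts, and 1 was called in Anergic against Teff (19.2% of all rows in the family fit), 2 in Anergic against Treg (22.5%), 3 in Anergic against Naive (34.7%), 3 in Teff against Naive (25.2%), 2 in Treg against Naive (23.7%) and 1 in Treg against Teff (21.1%). Trav15 was lower in Anergic cells than in Treg (log2 fold change -3.52 ± 0.605 SE, adjusted p = 2.25e-05), Teff (-2.11 ± 0.720 SE, adjusted p = 0.0353) and Naive cells (-3.52 ± 0.589 SE, adjusted p = 8.64e-06). It was also lower in Teff than in Naive cells (-1.42 ± 0.493 SE, adjusted p = 0.0307) and higher in Treg than in Teff (1.42 ± 0.507 SE, adjusted p = 0.0423). Trav14 was lower than in Naive cells in Anergic (-0.48 ± 0.151 SE, adjusted p = 0.0130), Treg (-0.62 ± 0.161 SE, adjusted p = 0.00351) and Teff cells (-0.55 ± 0.161 SE, adjusted p = 0.00907). Trav4 was higher than in Naive cells in Treg (0.61 ± 0.206 SE, adjusted p = 0.0269) and Teff (0.70 ± 0.206 SE, adjusted p = 0.0103), with 9.65 ± 2.58% of Trav counts in Anergic, 11 ± 2.75% in Treg, 11.6 ± 1.28% in Teff and 7.09 ± 0.964% in Naive libraries (SD, n = 3). Trav6 was higher in Anergic than in Naive cells (0.51 ± 0.195 SE, adjusted p = 0.0411), and Trav8 in Anergic than in Treg cells (0.57 ± 0.211 SE, adjusted p = 0.0477). Under 15 alternatives the Trav15 calls against Treg and Naive in Anergic cells and the Trav14 call in Treg held in all. Trav14 in Anergic was lost when Anergic replicate 2 or 3 was left out (-0.35 and -0.34, adjusted p 0.101 and 0.103, with 4.14e-05 to 0.103 over the 15), and in Teff without Teff replicate 2 (-0.44, adjusted p = 0.0704, with 1.86e-07 to 0.0704). As a level scaled to the whole library, Trav4 passed in neither, with log2 fold changes of 0.02 in Teff (adjusted p = 0.973) and, with the sign reversed, -0.08 in Treg (adjusted p = 0.852). The Trav4 usage call in Teff was lost without Naive replicate 3 (0.61, adjusted p = 0.0557, with 0.00212 to 0.973), and that in Treg without Naive replicate 1 or 3 or Treg replicate 2 or 3 (0.46 to 0.60, adjusted p 0.0642 to 0.173, with 0.00430 to 0.852). Trav6 was lost without Anergic replicate 1 or 3 or Naive replicate 2 or 3 (0.37 to 0.45, adjusted p 0.125 to 0.206, with 0.00856 to 0.206). Trav8 was lost without Anergic replicate 1 or 2, Treg replicate 1 or 3, Teff replicate 3 or Naive replicate 2 (0.28 to 0.61, adjusted p 0.0512 to 0.445, with 4.59e-05 to 0.445). The Trav15 calls that involve Teff were lost against Anergic without Anergic replicate 1 or 3 or Teff replicate 2 (-2.14 to -1.38, adjusted p 0.0700 to 0.328, with 0.0178 to 0.328), against Naive without Teff or Naive replicate 1 or 3 (-1.45 to -1.1, adjusted p 0.0552 to 0.151, with 0.00131 to 0.151), and against Treg without Teff replicate 1 or 3 or Treg replicate 2 or 3 (1.1 to 1.32, adjusted p 0.116 to 0.185, with 0.0107 to 0.185).

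The leading joining segments did not pass the usage test in any comparison. Traj6 took 11.5 ± 0.776% of Traj counts in Anergic, 12.1 ± 0.0813% in Treg, 12.8 ± 1.94% in Teff and 10.6 ± 0.196% in Naive libraries (SD, n = 3), the highest share in each subset. Traj22 followed with 7.33 ± 0.249, 7.56 ± 0.646, 7.34 ± 0.833 and 8.53 ± 0.961%, and Traj12 with 6.14 ± 0.717, 6.38 ± 0.910, 7.62 ± 0.0486 and 7.20 ± 0.774%, in the same order. Traj9 took 4.90 ± 1.74, 4.31 ± 0.605, 4.76 ± 0.614 and 4.57 ± 0.492%. Ranges of the subsets overlapped for Traj9, where Anergic replicate 1, with 118 counts, stood above replicates 2 and 3, with 56 and 57. Per base of the segment, Traj6 had 35.2 counts, Traj22 24, Traj12 22.4, the pseudogene Traj14 15.4, Traj18 15.1 and Traj9 15 over all libraries. The 9 Traj rows annotated as pseudogenes, of which 8 are members, together took 5.97 ± 0.119, 6.33 ± 0.464, 5.99 ± 0.461 and 5.79 ± 0.401% of Traj counts in Anergic, Treg, Teff and Naive libraries (SD, n = 3).

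Counts leaned to the Trac side of the array in all subsets. Reads of unspliced RNA may share in this lean, and their part was not tested. The 20 Traj rows nearest Trac, within 21.7 kb, took 62.7 ± 2.26% of Traj counts in Anergic, 64.3 ± 0.496% in Treg, 64.3 ± 0.906% in Teff and 61.3 ± 0.619% in Naive libraries (SD, n = 3). The 20 farthest, 44.7 to 65.5 kb away, took 6.85 ± 0.831, 5.67 ± 0.262, 6.92 ± 0.710 and 7.05 ± 0.232% in the same order. Median counts per base were 7.70 in the nearest 20, 3.38 in the middle 20 and 0.924 in the farthest 20. Across the 60 rows, counts per base fell with distance from Trac with Spearman's rho of -0.840 in Anergic, -0.857 in Treg, -0.807 in Teff and -0.817 in Naive libraries, a description over segments of the same libraries. Over the 128 Trav rows rho lay between -0.346 and -0.326 in the 4 subsets. Of the 43 Trav rows nearest the Traj array, 35 were members, against 19 of 43 in the middle and 17 of 42 farthest away. Over all 12 libraries, Trav counts per base had a rho of -0.348 with distance and of 0.647 with the share of unique windows. The part of sequence uniqueness in the Trav trend was not tested.

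**Figure D4:**
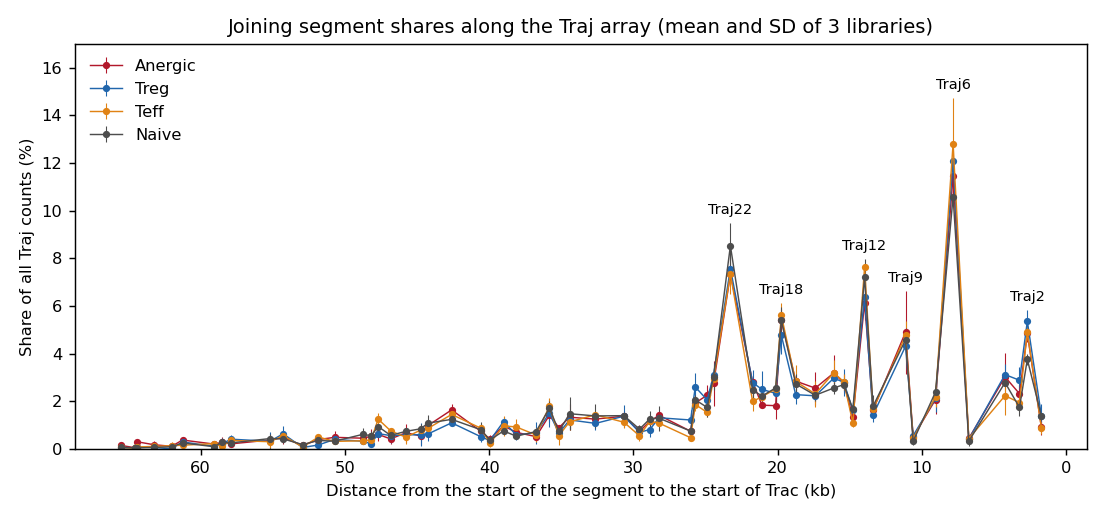
Each point is the mean share of a Traj row in all Traj counts (percent, y axis) with the SD of 3 libraries, set at its distance from Trac in kb with Trac on the right, and colours give the subsets. The 4 lines run close together, with Traj6 highest at 10.6 to 12.8% and all rows beyond 44.7 kb low.

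Differences in joining usage came to 4 segments, and none of these calls held in the DESeq2 test. Traj2, close to Trac, had 77, 60 and 65 counts in Treg and 68, 69 and 55 in Naive libraries, and its share averaged 5.35 ± 0.479% in Treg and 3.76 ± 0.221% in Naive libraries (SD, n = 3), with no overlap (log2 fold change 0.52 ± 0.172 SE, adjusted p = 0.0245). Traj3, next to it, had 46, 29 and 34 counts in Treg and 38, 34 and 19 in Naive libraries, 2.88 ± 0.552% against 1.74 ± 0.349% (SD, n = 3), again with no overlap (0.71 ± 0.259 SE, adjusted p = 0.0414). Both calls are of usage: as levels scaled to the whole library, the log2 fold change was -0.18 for Traj2 (adjusted p = 0.523) and 0.00 for Traj3 (adjusted p = 1). Traj2 was also lost without Treg replicate 1 or 3 or Naive replicate 1 or 2 (0.46 to 0.51, adjusted p 0.0620 to 0.104, and 0.0151 to 0.523 over 20 alternatives), and Traj3 without Treg replicate 1 or 3 or Naive replicate 2 or 3 (0.56 to 0.72, adjusted p 0.0837 to 0.206, and 0.0297 to 1 over the 20).

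Traj26 was higher in Treg than in Teff cells, with 22, 10 and 14 counts, against 11, 6 and 7 in Teff libraries. Its share averaged 1.21 ± 0.420% in Treg and 0.465 ± 0.0664% in Teff cells (SD, n = 3), with no overlap (log2 fold change 1.36 ± 0.445 SE, adjusted p = 0.0246), and the call was lost without Treg replicate 1 or 3 or Teff replicate 2 or 3 (1.07 to 1.38, adjusted p 0.0517 to 0.170, and 0.0151 to 0.240 over 20 alternatives). It also did not pass in the DESeq2 test or as a level under either whole-library scaling, with a log2 fold change down to 0.80. Traj59, near the far end of the array, had 4, 7 and 3 counts in Anergic and 1, 1 and 0 in Naive libraries, and was named after its values were seen because it was the only Traj called for Anergic cells. It had 14 of its 23 counts in Anergic libraries and reached the minimum of 10 only with them, so it had to differ there, and its call against Naive cells (14 of 4710 against 2 of 5147 Traj counts, adjusted p = 0.0440) supports nothing. That call was lost under 11 of 19 alternatives, among them each that left out an Anergic or a Naive library (adjusted p 0.0555 to 0.140, and 0.0381 to 0.140 over the 19).

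The segments of invariant T cells showed no called usage difference. Traj18, the iNKT joining segment, had 87, 101 and 66 counts in Anergic, 59, 53 and 67 in Treg, 121, 91 and 75 in Teff, and 90, 102 and 83 in Naive libraries, and the subsets overlapped. It took 5.42 ± 0.450% of Traj counts in Anergic, 4.77 ± 0.773% in Treg, 5.61 ± 0.491% in Teff and 5.40 ± 0.569% in Naive libraries (SD, n = 3). Log2 fold changes ran from -0.24 ± 0.169 SE in Treg against Teff to 0.18 ± 0.171 SE in Anergic against Treg (adjusted p 0.373 to 0.971 over the 6 comparisons). Its iNKT partner Trav11 had 1 count, in Teff replicate 1, and its identical copy Trav11d had 0. The pseudogene Trav11n, shown above, had 4, 3 and 5 counts in Anergic, 3, 2 and 1 in Treg, 7, 1 and 0 in Teff, and 3, 1 and 3 in Naive libraries. No 50-base window of Trav11 is its own, so its reads cannot be told apart from those of its copy.

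Markers of the iNKT lineage did differ between the subsets. Zbtb16, encoding the transcription factor PLZF, was at 23.1 ± 5.19 CPM in Anergic, 0.441 ± 0.244 in Treg, 99.7 ± 19.4 in Teff and 0.480 ± 0.334 in Naive libraries (SD, n = 3). Klrb1c, encoding NK1.1, was at 4.75 ± 0.515, 0.420 ± 0.246, 38.8 ± 11.3 and 0 CPM in the same order. All 8 listed iNKT markers were called higher in Teff than in Naive cells, in edgeR's quasi-likelihood test, where 14.6% of all rows were. Against Teff, 7 of 8 were called lower in Anergic cells, where 8.96% of all rows were, and Slamf6, a SLAM family receptor, was called higher, at 357 CPM in Anergic and 179 CPM in Teff libraries (log2 fold change 1.0 ± 0.0676 SE, adjusted p = 4.32e-14, n = 3 each). Their sum ran from 729 to 758 CPM in Anergic, 666 to 689 in Treg, 1231 to 1278 in Teff and 99.4 to 114 in Naive libraries. Most of it was Slamf6 and Il2rb, an interleukin receptor chain at 303 CPM in Anergic, 555 in Treg, 543 in Teff and 15.8 in Naive libraries, and in Treg libraries Zbtb16, Klrb1c, Klrk1, Cxcr6 and Ly6c2 were each under 1 CPM. The part of iNKT cells in any segment's share was not tested.

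Traj33, the MAIT joining segment, had 15, 17 and 10 counts in Anergic, 10, 9 and 6 in Treg, 21, 4 and 6 in Teff, and 12, 13 and 12 in Naive libraries. It took 0.888 ± 0.0631% of Traj counts in Anergic, 0.659 ± 0.132% in Treg, 0.558 ± 0.394% in Teff and 0.732 ± 0.121% in Naive libraries (SD, n = 3), with Teff replicate 1 the highest and Teff replicate 2 the lowest of all libraries. Its log2 fold changes ran from -0.30 ± 0.454 SE in Teff against Naive to 0.59 ± 0.446 SE in Anergic against Teff (adjusted p 0.425 to 0.901 over the 6 comparisons). Trav1, the MAIT variable segment, whose 50-base windows are all its own, had 6, 1 and 5 counts in Anergic, 12, 3 and 5 in Treg, 4, 3 and 6 in Teff, and 5, 12 and 0 in Naive libraries, and did not pass in any comparison (adjusted p 0.278 to 0.920). The 5 listed markers of MAIT and type 17 innate-like cells summed to 53.8 to 83.8 CPM in Anergic, 32.7 to 43.9 in Treg, 246 to 276 in Teff and 42.2 to 44.2 in Naive libraries, mostly Il18r1 and Zbtb16. Il23r was at 0 in Naive libraries and at 0.816 CPM in Teff. Their part in the shares was not tested.

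Replicates spread most in the Trav use of Anergic cells. For segments with at least 30 counts in a subset, spread was measured as chi-square per degree of freedom between the 3 replicates. Counting noise alone gives this a mean of 1 and a median under 1. Its median for Trav was 2.57 in Anergic, 1.85 in Treg, 1.32 in Teff and 0.834 in Naive libraries. It was above 3 in 15 of 34, 5 of 27, 4 of 22 and 4 of 30 Trav segments in the same order. The highest were Trav14n-3 at 36.9, Trav8d-2 at 21.3 and Trav4-4-dv10 at 15, all in Anergic libraries. Trav8d-2 had 16, 44 and 2 counts in Anergic, 7, 13 and 1 in Treg, 8, 9 and 10 in Teff, and 8, 12 and 9 in Naive libraries. For Traj the medians were 0.751, 1.08, 1.07 and 0.676 in the same order. Values above 3 were found in 6 of 38, 1 of 31, 3 of 38 and 2 of 40 Traj segments. The highest was Traj9 at 11 in Anergic libraries. These are descriptions, with no test of the difference between subsets.

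**Figure D5:**
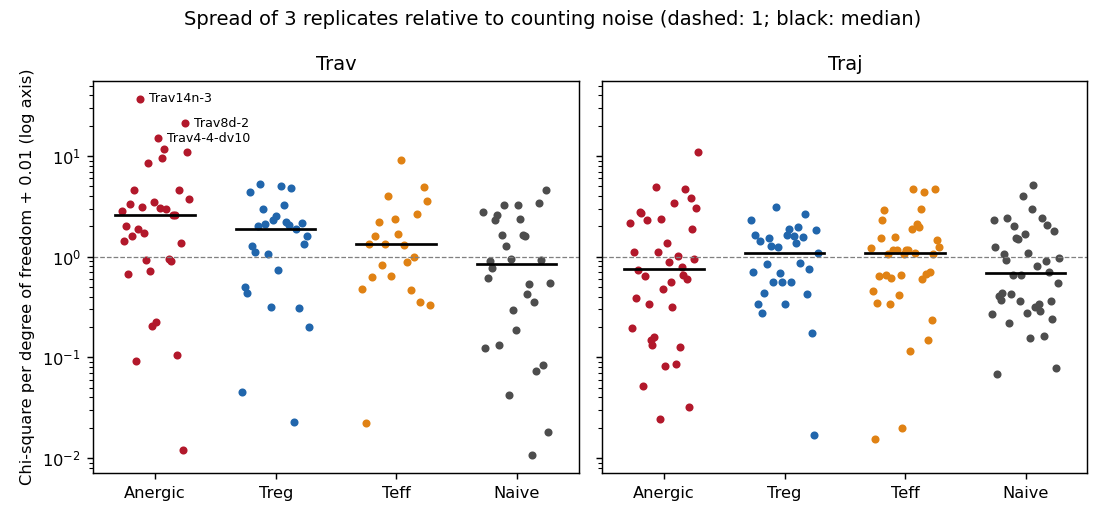
Each point is a segment with at least 30 counts in a subset, with the chi-square per degree of freedom between its 3 replicates plus 0.01 on a log y axis, for Trav on the left and Traj on the right. Black lines are medians, which for Trav fall in the order Anergic 2.57, Treg 1.85, Teff 1.32 and Naive 0.834.

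As whole repertoires, Trav compositions of replicates differed about as much as those of different subsets, except in Naive cells, whose replicates were closer to each other. The share of Trav counts that would have to move to turn a library into another was 23.3 to 29.0% within Anergic, 23.2 to 24.4% within Treg, 22.6 to 26.0% within Teff and 17.5 to 18.2% within Naive cells, and 21.1 to 31.5% between subsets (median 24.9% over 54 pairs, against 23.8% over 12 pairs within subsets). Naive libraries differed by at least 21.1% from Treg, 21.4% from Anergic and 22.4% from Teff libraries, above every pair within Naive cells. For Traj the share to be moved was 8.22 to 12.3% within and 9.92 to 13.9% between subsets. Evenness, as the effective number of segments (the inverse Simpson index), was 31.6 ± 3.76 Trav in Anergic, 40.9 ± 2.22 in Treg, 38.1 ± 2.23 in Teff and 38.0 ± 2.54 in Naive libraries (SD, n = 3). The 3 Anergic libraries, at 27.3 to 34.4, were all below the lowest library of the other subsets at 35.3. With the exponential of Shannon entropy they were not, since Anergic libraries at 42.1 to 44.1 overlapped Teff replicate 3 at 43.2. For Traj it was 24.4 ± 0.555, 23.4 ± 0.377, 22.1 ± 2.26 and 24.6 ± 0.764 in the same order.

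Scaled to whole libraries instead, segments followed their class totals, and more were called. Of the 71 Trav and 59 Traj members, Treg against Naive called 11 and 18 lower and none higher (23.7% of all rows called in the level fit), and Teff against Naive called 11 and 1 lower and none higher (25.2%). Anergic against Teff called 7 Trav higher (19.2%), Anergic against Treg 7 Trav and 2 Traj higher and 1 Trav lower (22.5%), and Anergic against Naive 2 Trav higher, 4 Trav lower and 3 Traj lower (34.6%). Treg against Teff called 11 Traj lower (21%). The median level difference of all 59 Traj members was -0.78 on the log2 scale for Treg against Naive, and that of the 71 Trav members was -0.66. Traj18 was called as a level though not as usage: it was lower in Treg than in Teff (log2 fold change -0.77, adjusted p = 0.000979) and Naive cells (-0.87, adjusted p = 0.000207), and higher in Anergic than in Treg cells (0.60, adjusted p = 0.0117).

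Of 6 listed genes of V(D)J recombination and thymocytes, Rag2 and Ptcra, a recombinase subunit and the pre-T-cell receptor alpha chain, had 0 counts, and Rag1 had 1 count in all 12 libraries. Dntt, which adds bases at the junctions, was at 0.284 ± 0.176 CPM in Anergic, 1.70 ± 0.181 in Treg, 0.785 ± 0.451 in Teff and 10.7 ± 1.69 in Naive libraries (SD, n = 3). In edgeR's quasi-likelihood test Dntt was lower than in Naive cells in Anergic (log2 fold change -5.16 ± 0.406 SE), Treg (-2.64 ± 0.296 SE) and Teff cells (-3.76 ± 0.342 SE), with n = 3 in each group. Cd8b1, encoding the CD8 beta chain, was at 5.05 CPM in Anergic, 10.1 in Treg, 4.09 in Teff and 15.1 in Naive libraries. It was also called lower than in Naive cells in the 3 other subsets. Cd8a, the last of the 6, had 46 counts in all and was lowest in Naive libraries. It was at 0.324, 0.729, 0.588 and 0.237 CPM in the same order and was called in no comparison.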

How the data were processed

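The deposited file is a table of raw read counts per gene for 12 libraries, made by the authors in a pipeline of HISAT2 alignment and featureCounts counting after Trimmomatic trimming, per the series' design text, on GRCm38 (mm10), per the submitters' processing notes. RNA was extracted with the QIAGEN RNeasy kit and libraries were made with a Takara SMARTer stranded total RNA kit (Pico version) and sequenced as paired 50-base reads, per the labels' protocols. The annotation release, strand setting and treatment of multi-mapped and junction-spanning reads were not given in sources used here. They decide how reads of near-identical Trav copies, and reads that cross a V-J join, enter the counts.

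Rows were matched by symbol to GENCODE M21, from which positions, lengths and sequences were taken. Usage was tested with edgeR 4.0.16 (R 4.3.3), its quasi-likelihood F test, two-sided, on all 19020 rows with at least 10 summed counts, in a model of 4 subset means over 12 libraries. Trav and Traj rows were scaled to the library's Trav or Traj total and other rows by TMM. P-values were adjusted by Benjamini-Hochberg over all rows and called under 0.05. The script was tested on simulated counts. Trav rows were also summed by family and fitted the same way. Alternatives were scaling to whole libraries by TMM or DESeq2 size factors, TMM among segments, other filters, a DESeq2 1.42.0 test, the compared subsets alone, a replicate block, and leaving out each library. Named were the iNKT and MAIT segments, the 5 most used Trav and Traj, rows next to the threshold, and called members with a share of at least 0.5% in the higher subset, up to 5 in each direction. Families were named by the same calls, up to 3 in each direction. Members, lists and tests were chosen with earlier results of these data known. Every pair of replicates differed by more than counting noise. Marker lists of B cells (174 to 442 CPM of Ighm by subset) and myeloid cells (3.65 to 10.0 CPM in sum by subset) were read beside those in the text.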

Additional observations from a re-analysis of the deposited data

How the results depend on the processing

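Usage calls among the 130 members numbered 2 in Anergic against Teff, 4 in Anergic against Treg, 7 in Anergic against Naive, 3 in Teff against Naive, 3 in Treg against Naive and 1 in Treg against Teff. With levels scaled to whole libraries they became 7, 10, 9, 12, 29 and 11 under TMM, and 7 and 12 in the first 2 comparisons and 12, 31 and 11 in the last 3 under DESeq2 size factors, since these also hold the class differences by construction. The DESeq2 test gave 2, 2, 4, 1, 1 and 0 in the same order, where 10 members had an unadjusted p under 0.05 in Treg against Teff by edgeR. Testing every row with a count gave 4 in Anergic against Teff and 1 in Treg against Naive. With a replicate block the counts were 5, 4, 8, 4, 4 and 1. Same-numbered libraries of different subsets deviated together with a median correlation of 0.138 (0.0553 to 0.315, 14 of 18 pairs over 0.1), against -0.0923 for different numbers (2 of 36 pairs over 0.1). Deviations were taken from each subset's own mean, so positive values for equal numbers pull those for different numbers below 0. Every same-numbered pair was above 0, though not every one was over 0.1. The labels give no shared animal or day, so the numbers were not taken as pairs. The correlation is a hint from the data, not the design. Under the block Traj59 was no longer called in Anergic against Naive. Without single libraries the counts ran from 0 to 5, 1 to 7, 4 to 8, 1 to 3, 1 to 3 and 0 to 1 in the same order. Family calls of 1, 2, 3, 3, 2 and 1 became 6 in Anergic against Teff, 6 in Anergic against Treg, 6 in Teff against Naive and 4 in Treg against Naive as levels, 1 in Anergic against Treg under edgeR's own filter, and ran from 0 to 2, 1 to 2, 2 to 3, 1 to 3, 1 to 2 and 0 to 1 without single libraries. The log2 fold change of Treg against Naive reversed for Traj2 to -0.18 (TMM) and -0.20 (DESeq2 size factors) for Traj3 to -0.013 (DESeq2 size factors) and for the Trav4 family to -0.08 (TMM) as levels, where the share of Trav and Traj in the library enters. Other causes were not tested. Depth limits small shares: a library's Trav total of 581 to 988 counts puts the floor of 3 counts at 0.304 to 0.516% of Trav.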

Other observations

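Segments with dv in their names, which can also join to delta segments, took 12.5 ± 2.66% of Trav counts in Anergic, 14.3 ± 1.63% in Treg, 13.8 ± 1.80% in Teff and 13.1 ± 0.903% in Naive libraries (SD, n = 3), and the ranges of the subsets overlapped. Rows with n in the name, of an added copy of the Trav cluster, took 21.1, 8.29 and 11.8% in the Anergic libraries, where replicate 1 is also the library with 131 Trav14n-3 counts. They took 9.74 ± 1.69% in Treg, 9.44 ± 3.03% in Teff and 10.3 ± 0.522% in Naive libraries (SD, n = 3). Rows annotated as Trav pseudogenes took 1.93 ± 0.403% in Anergic, 1.20 ± 0.691% in Treg, 2.93 ± 1.34% in Teff and 2.35 ± 0.229% in Naive libraries (SD, n = 3).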
